A study of Mus musculus with 12 samples.

Results

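Subcutaneous and split-route delivery of mesenchymal stem cells (MSCs) were compared in the dorsal skin of mice with a dermatitis-like disease. In the scMSC group the cells were injected under the skin only. In the scivMSC group each dose was divided between the skin and the tail vein. The comparison takes 6 of the 12 RNA-seq libraries, 3 from each route. It covers the 21890 of 36400 annotated genes whose mean level over the 12 libraries was at least 0.1 FPKM (a fragment count scaled by transcript length and library depth).

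All 4 groups were female BALB/c mice that entered the experiment at 6 weeks of age. The control group was treated with the vehicle alone, a mix of acetone and olive oil, and received no cells. The DNCB, scMSC and scivMSC groups were sensitized with 1% 2,4-dinitrochlorobenzene (DNCB), a contact allergen, and then challenged with 0.5% DNCB. Both MSC groups received 2000000 human umbilical cord MSCs per injection in 4 injections from day 13 to day 25, and skin was taken on day 30. The scMSC mice received 100 µL of cells subcutaneously, the scivMSC mice 50 µL subcutaneously and 50 µL intravenously, so the dose placed in the skin was lower in the split route. The transplanted cells were human and the hosts were immunocompetent mice, and the table holds mouse genes only. Each group was 3 libraries, and p-values measure the spread between libraries of a group. That spread was estimated in 1 model of all 4 groups. The control and DNCB libraries therefore also enter the errors, intervals and p-values of the route comparison.

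Mouse skin is a layered tissue. Basal keratinocytes feed suprabasal layers that build the barrier, and a wounded or inflamed epidermis switches on a set of stress keratins and small proline-rich proteins. Hair follicles pass through growth, regression and rest, and only growing follicles make hair shaft keratins in bulk. Beneath lie fibroblasts, vessels, fat and a sheet of striated muscle. Because whole skin was sequenced, fewer cells of a type and less RNA per cell cannot be told apart.

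The library totals of the 6 MSC libraries were 65956147 to 74943773 estimated counts, within the 63877153 to 75134001 of the series. Skin markers were abundant throughout. Krt14, the keratin of basal cells, lay between 733 and 3391 FPKM in the 6 MSC libraries, and Krt10, the suprabasal keratin, between 2061 and 6219 FPKM. Transcripts of lung epithelium, which skin should lack, split the libraries across the routes. The summed level of a 14-gene lung list was 74.2 and 68.8 FPKM in scMSC 1 and scMSC 2, and 25.9 to 55.7 FPKM in the control and DNCB libraries. It was 3.42 FPKM in scMSC 3 and 6.89, 4.47 and 6.71 FPKM in scivMSC 1, 2 and 3. Of the 11 lung genes tested, 8 were lower in scivMSC at an unadjusted p under 0.05, and Sftpb, a surfactant protein gene, was at 0.75, 0.67 and 0 FPKM in scMSC and listed at 0 in scivMSC. Values from a fit with this split as a term, chosen after the data were seen, are given beside the lists and genes it moved most. All scivMSC libraries fell in the low class, with scMSC 3 as the only scMSC library. The control and DNCB libraries all fell in the high class. The route difference of that fit therefore sets the scivMSC libraries against scMSC 3 alone. It cannot be read as a route effect freed of the lung split, whose part was not tested further.

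The first question was how far the routes lie apart compared with mice of 1 route. They did not lie farther apart. Libraries were compared on log2 counts scaled for library size (edgeR, TMM factors). The median absolute difference was 0.362 to 0.401 for the 3 pairs within scMSC and 0.285 to 0.431 for the 3 pairs within scivMSC. It was 0.248 to 0.458 for the 9 pairs between routes. The closest pair of all was formed by libraries of different routes. scMSC 1 and scivMSC 1 differed by 0.248 and correlated across genes at r = 0.966, whereas scMSC 1 reached r = 0.958 with its nearest library of the same route. scivMSC 3 was nearest to scMSC 3 (r = 0.950).

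Over the 6 libraries the route accounted for 21.6% of the sum of squares, where 1 of the 5 degrees of freedom is 20.0%. The first principal component held 26.3% of the variance and set scivMSC 3, at 97.4, against scivMSC 2, at -58.7. It did not separate the routes. The second component held 24.2% and did, with the scMSC libraries at 1.66, 81.5 and 48.2 and the scivMSC libraries at -15.7, -56.5 and -59.2. The spread between mice, given as the common biological coefficient of variation, was 0.439 in scMSC and 0.455 in scivMSC, beside 0.431 in control skin and 0.346 in DNCB skin. Without scivMSC 3 the value of its group was 0.382.

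Gene by gene, 1 of 21890 genes differed between the routes at an adjusted p under 0.05 and a change over 2-fold (edgeR quasi-likelihood test, Benjamini-Hochberg adjustment). This is 0.00457% of the genes tested. The gene was Ccdc50 on chromosome 16 (27388869 to 27452218, plus strand, GRCm38), which codes for a coiled-coil protein that binds ubiquitin chains. It was at 1.34, 1.11 and 1.61 FPKM in scMSC and at 10.4, 10.2 and 6.55 FPKM in scivMSC, a log2 fold change of 2.72 ± 0.19 (SE, n = 3 and 3, adjusted p = 0.000511). The control libraries (7.13, 9.63 and 10.5 FPKM) and the DNCB libraries (9.24, 8.84 and 9.43 FPKM) lay with scivMSC. The next gene had an adjusted p of 0.555. Another count model, DESeq2, called 115 genes, 56 of them higher in scivMSC. Ccdc50 was among them, as were Sprr2b (DESeq2 adjusted p = 0.000551), Cxcr2 (8.26e-05), Dbp (0.000419), Bmp4 (0.00760) and Lep (0.00341), which are described below with their edgeR values.

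The lack of further calls has to be read with the width of the intervals. Of 21833 genes with a 95% interval of the route difference, 48.7% had that interval within 2-fold in both directions, and 70.2% did among the 14383 genes averaging 1 FPKM or more. For the rest, a difference over 2-fold between the routes lay inside the interval. Before adjustment, 744 genes (3.4%) were higher in scivMSC at p under 0.05 and 898 genes (4.1%) were lower. The 3 scivMSC libraries all lay above the 3 scMSC libraries for 1129 genes (5.16%) and all below them for 1242 genes (5.67%). The counts of the compartments below are to be read against these shares.

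Skin compartments were followed with 29 hand-written gene lists, each summarized in a library by the mean of log2(FPKM + 0.1) over its tested genes. For 26 lists the libraries of the routes overlapped. The 3 scivMSC libraries lay above scMSC for 1 list, the stress keratinocyte genes, and below it for 2 lists, the hair shaft and inner root sheath genes and the regulators of follicle growth. In no list did the difference of the route means exceed the range of the libraries in both routes. It was smaller than the scMSC range in 28 lists and smaller than the scivMSC range in 25.

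**Figure D1:**
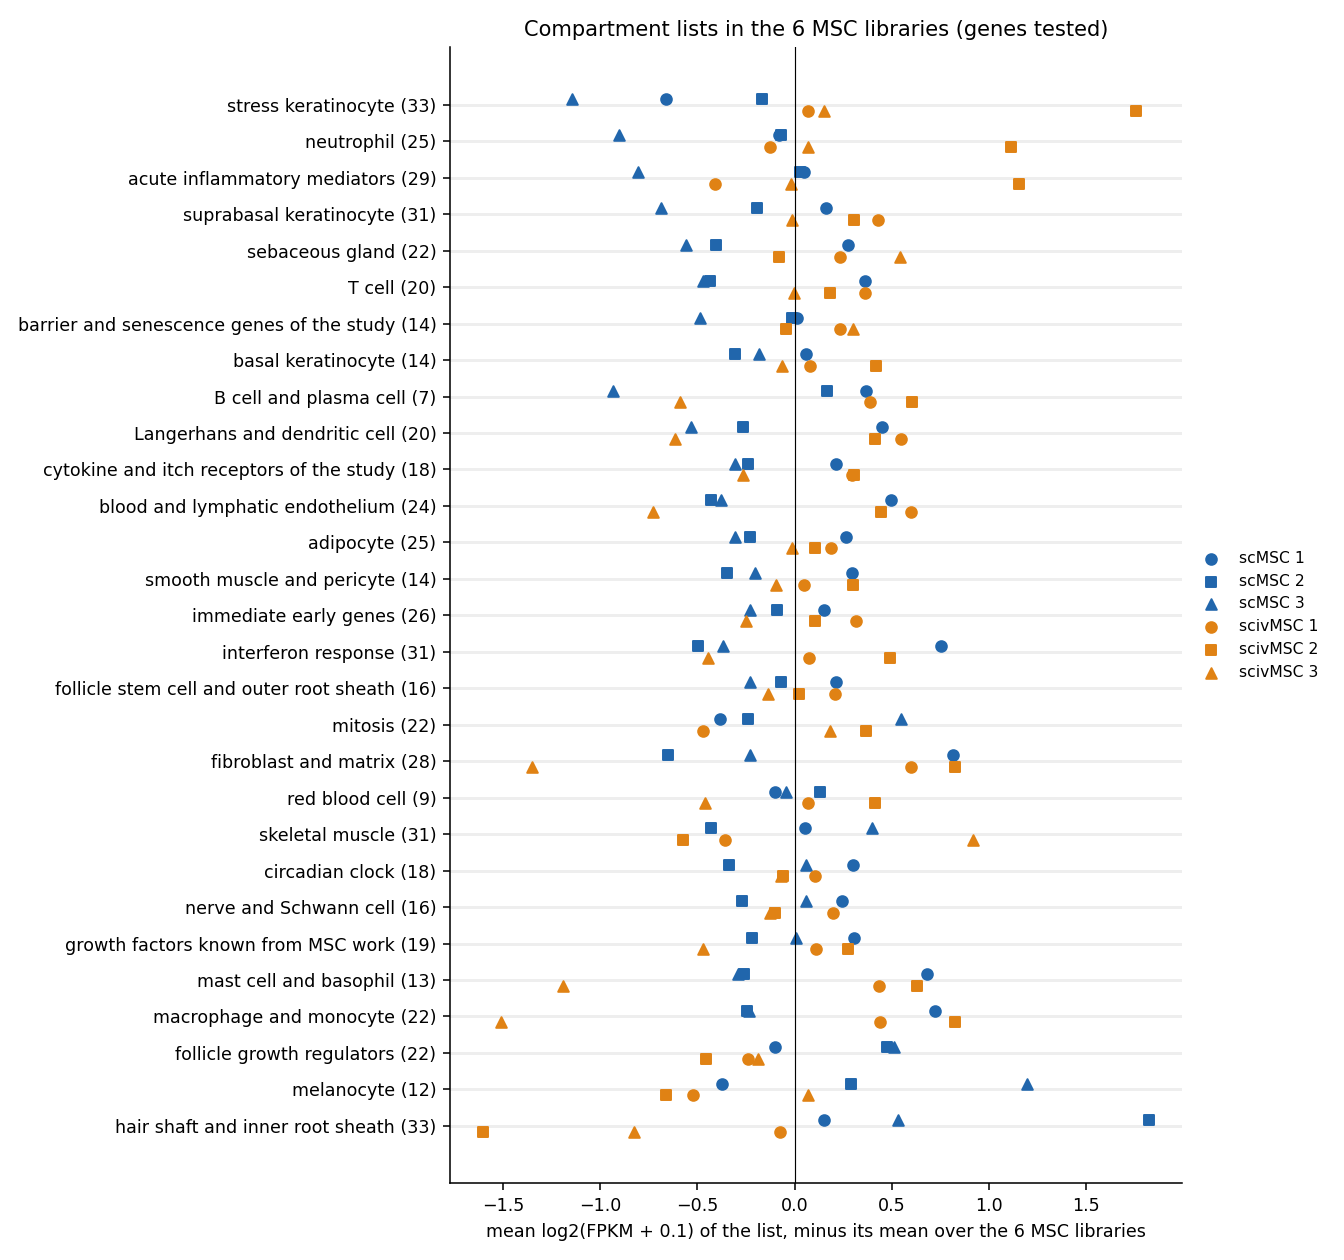
Mean log2(FPKM + 0.1) of each of the 29 lists in the 6 MSC libraries, less the mean of that list over the 6 libraries, with the number of genes tested in brackets. Blue points are scMSC and orange points scivMSC, with the replicate number given by the marker shape. Lists are ordered by the difference of the route means, from stress keratinocyte genes at the top to hair shaft genes at the bottom. scivMSC 3 lies lowest of the 6 in 8 lists.

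Of the 29 lists, the stress keratinocyte genes gave the largest count higher in scivMSC. Of its 33 genes tested, 22 were higher at an unadjusted p under 0.05 and 2 were lower, and 17 had all scivMSC libraries above all scMSC libraries. The median log2 difference was 1.63, beside 0.01 over all genes. The list stood at 2.36, 2.86 and 1.88 in scMSC, at 3.09, 4.78 and 3.17 in scivMSC, and at 5.34 to 5.53 in DNCB skin. scivMSC 2 carried the highest level of the MSC libraries. Without it, 12 genes were still higher at p under 0.05 and the median was 0.90. With the lung split as a term the median was 2.26, with 19 genes higher.

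The list holds the keratins of wounded epidermis. Krt6b, paired with Krt16 in activated keratinocytes, was at 36.4, 54.3 and 31.6 FPKM in scMSC and at 72.7, 1021 and 117 FPKM in scivMSC. The groups did not overlap, but scivMSC 2 stood far above the other 2 libraries of its route. The log2 fold change was 3.24 ± 0.82 (SE, n = 3 and 3, unadjusted p = 0.00223, adjusted p = 0.565). Krt16 was at 74.5, 167 and 50.9 FPKM in scMSC and 170, 1491 and 167 FPKM in scivMSC, so its lowest scivMSC library met its highest scMSC library. DNCB skin held a mean of 2411 FPKM of Krt6b and 2305 FPKM of Krt16. Krt6b lay 5.85 log2 units below DNCB skin in scMSC (adjusted p = 0.00337) and 2.61 units below in scivMSC (adjusted p = 0.0714). The 2 comparisons share the DNCB libraries.

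Small proline-rich proteins are cross-linked into the cornified envelope, and their Sprr2 genes form a cluster on chromosome 3. Sprr2d was at 10.4, 11.8 and 7.22 FPKM in scMSC and at 34.1, 62.6 and 22.5 FPKM in scivMSC, a log2 fold change of 1.97 ± 0.41 (SE, n = 3 and 3, unadjusted p = 0.000611, adjusted p = 0.565). Sprr2b was at 1.25, 1.51 and 1.59 FPKM against 4.84, 6.69 and 5.66 FPKM (log2 fold change 1.96 ± 0.37, unadjusted p = 0.000285). For Sprr2b the 3 libraries of each route were tight and far apart. Sprr2i was at 0.43, 0.37 and 0.18 FPKM against 1.92, 12.9 and 1.73 FPKM, and Sprr2e at 0, 0.22 and 0.29 FPKM against 1.20, 14.4 and 1.52 FPKM. At most 16 estimated counts lay behind Sprr2e and 22 behind Sprr2i in a scMSC library. Sprr2 genes are closely related copies of each other, and how reads shared by copies were divided is not given in the sources used here.

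The 4 Sprr2 genes with the lowest p-values are shown with the 250 bases before their start, since they stand in 1 cluster and lay on the same side of the comparison. The windows are from RefSeq on GRCm38.p6, plus strand, 5′ to 3′: chr3:92316455-92316704 for Sprr2b, chr3:92338890-92339139 for Sprr2d, chr3:92351893-92352142 for Sprr2e and chr3:92407741-92407990 for Sprr2i. Capitals mark 2 motifs searched on both strands, the AP-1 site TGANTCA and the TATA element TATAAA.
Sprr2b: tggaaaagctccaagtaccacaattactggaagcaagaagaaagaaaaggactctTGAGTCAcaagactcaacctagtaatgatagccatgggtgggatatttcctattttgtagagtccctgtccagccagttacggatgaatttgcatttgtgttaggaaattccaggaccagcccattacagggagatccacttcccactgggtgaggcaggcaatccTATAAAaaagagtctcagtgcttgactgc
Sprr2d: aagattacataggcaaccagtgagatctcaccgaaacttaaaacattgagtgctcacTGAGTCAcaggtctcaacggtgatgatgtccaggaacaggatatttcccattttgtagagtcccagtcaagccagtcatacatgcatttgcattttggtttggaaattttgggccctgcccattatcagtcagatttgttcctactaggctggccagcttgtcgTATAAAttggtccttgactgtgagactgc
Sprr2e: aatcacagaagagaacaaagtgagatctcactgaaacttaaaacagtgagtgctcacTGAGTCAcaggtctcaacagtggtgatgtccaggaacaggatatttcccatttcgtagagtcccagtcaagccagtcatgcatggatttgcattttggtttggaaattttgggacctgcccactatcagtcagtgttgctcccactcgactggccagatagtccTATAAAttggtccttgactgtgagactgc
Sprr2i: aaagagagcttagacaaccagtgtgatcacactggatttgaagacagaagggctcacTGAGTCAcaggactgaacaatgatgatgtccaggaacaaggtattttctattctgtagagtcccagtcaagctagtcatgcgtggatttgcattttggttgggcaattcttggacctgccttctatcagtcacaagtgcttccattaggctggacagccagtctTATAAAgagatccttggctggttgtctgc
In Sprr2d, Sprr2e and Sprr2i the AP-1 site starts at position -193 and in Sprr2b at position -195, counted from -1 at the base before the start. The TATA element starts at position -29 in each. Of 10 Sprr2 genes with a window, 7 held both motifs and 3, the Sprr2a copies, held neither. These 3 genes lay on the same side of the comparison, with every scivMSC library above every scMSC library. Their log2 fold changes were 1.753 (Sprr2a1), 1.635 (Sprr2a2) and 1.85 (Sprr2a3). Over all 32851 windows of this length, 6.75% held the AP-1 site and 12.4% the TATA element. Compared without gaps, the windows of Sprr2d and Sprr2e had the same base at 220 of 250 positions, those of Sprr2i matched these 2 at 174 and 177, and that of Sprr2b matched the other 3 at 133 to 138. A match of letters is a description and no evidence that a factor was bound.

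Other members of the list did not move as a block. The late cornified envelope genes Lce3a to Lce3f are on the list as well, and their higher scivMSC means came mainly from 1 library. Lce3d was at 0.56, 1.70 and 0.62 FPKM in scMSC and at 0.79, 20.5 and 1.89 FPKM in scivMSC, and the groups overlapped. The epidermal interleukin-36 genes were steadier. Il36g (Il1f9 in the files), an alarm cytokine of keratinocytes, was at 31.7, 20.3 and 15.5 FPKM in scMSC and 50.5, 43.7 and 33.1 FPKM in scivMSC (log2 fold change 0.90 ± 0.28, unadjusted p = 0.00949). On the other side stood Sprr1a, at 568, 1584 and 614 FPKM in scMSC and 536, 454 and 300 FPKM in scivMSC (log2 fold change -1.16 ± 0.37, unadjusted p = 0.0102). S100a7a, an S100 protein of the epidermis, was also lower in each scivMSC library, with a log2 fold change of -1.81 ± 0.48 (unadjusted p = 0.00301). The log2 fold change was -0.52 for Sprr1a and -0.93 for S100a7a with the lung split as a term. Both had been called higher in scMSC than in DNCB skin (Sprr1a adjusted p = 0.0206, S100a7a adjusted p = 0.00239).

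**Figure D2:**
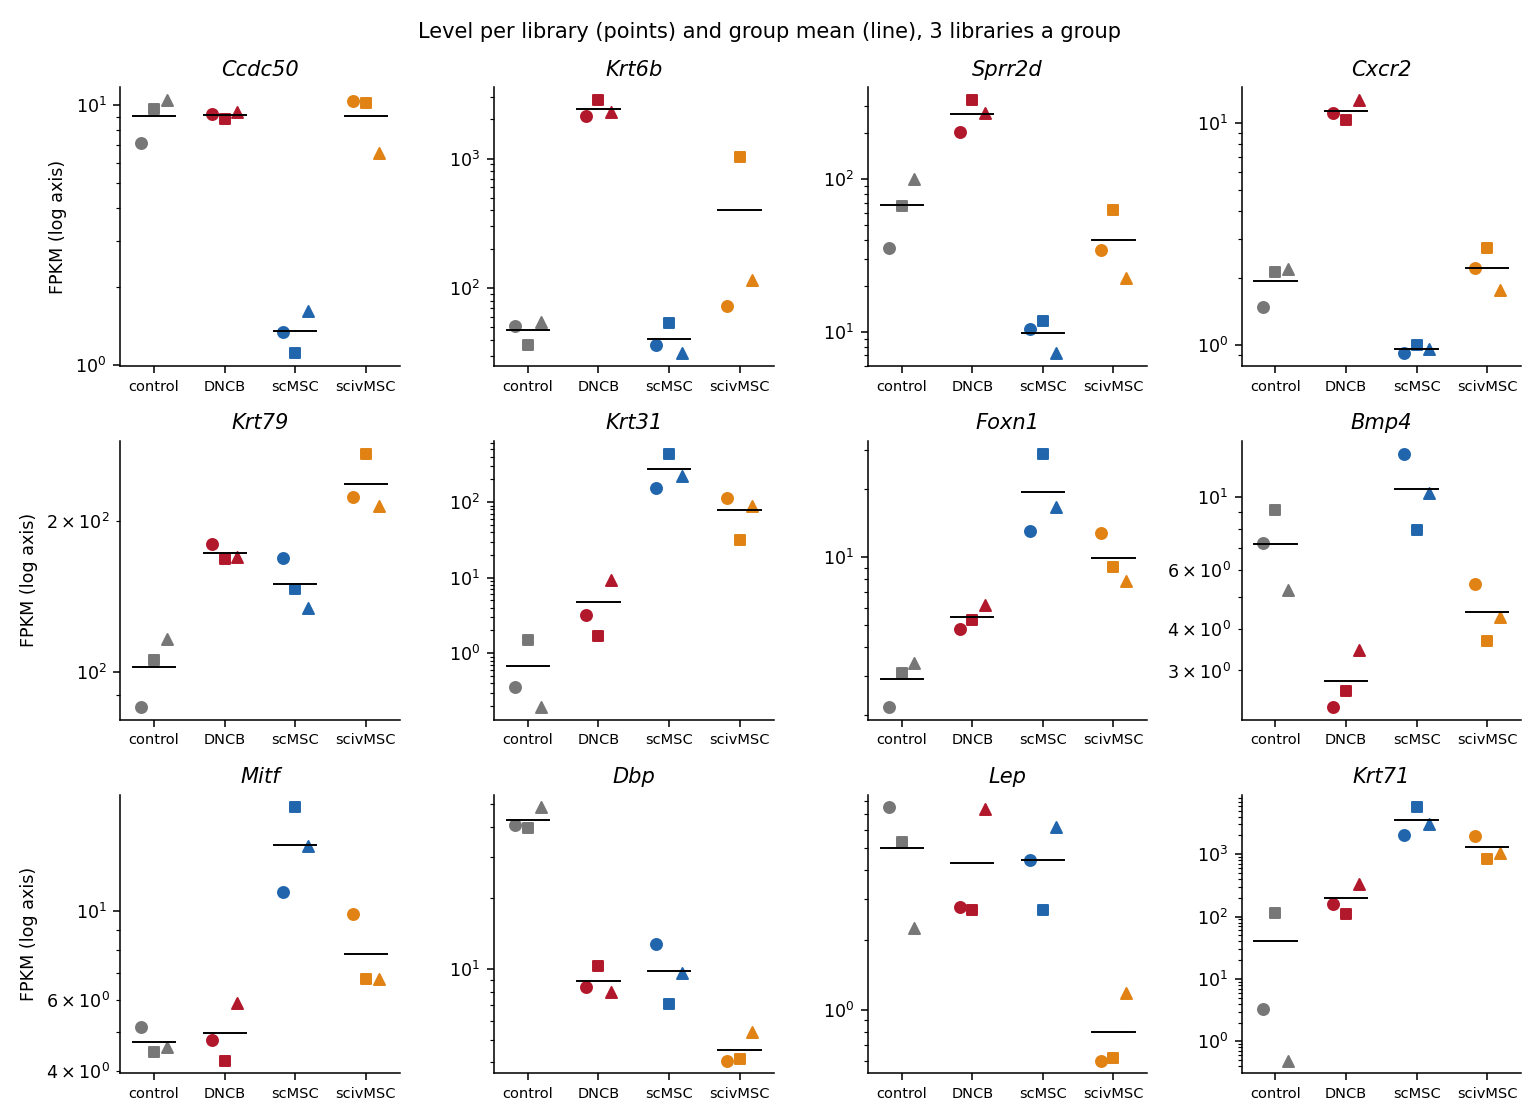
FPKM of 12 genes in the 12 libraries on log axes, 3 libraries a group, with the marker shape giving the replicate number and the line the group mean. Ccdc50 alone passed the adjusted test between the routes. In Krt6b, Sprr2d, Cxcr2 and Krt79 every scivMSC library lies above every scMSC library, and in Krt31, Foxn1, Bmp4, Mitf, Dbp, Lep and Krt71 every one lies below.

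The layers under and around the stressed epidermis leaned the same way by less. Of 31 suprabasal genes, 8 were higher in scivMSC at p under 0.05 and 0 lower, with a median log2 difference of 0.42, and of 14 basal genes 3 were higher and 0 lower, with a median of 0.24. Rptn, which codes for repetin of the cornified envelope, had the lowest p of them, at 13.1, 10.3 and 8.34 FPKM in scMSC and 32.4, 55.04 and 28.4 FPKM in scivMSC (log2 fold change 1.85 ± 0.43, unadjusted p = 0.00126). The library levels overlapped in both lists. For the basal keratin Krt14 the scMSC libraries held 962, 970 and 733 FPKM and the scivMSC libraries 1171, 3391 and 1275 FPKM. With the lung split as a term, 18 of the suprabasal genes were higher and their median was 1.16, and without scMSC 3 there were 2 and the median was 0.16. For the basal genes the median was 0.37 with that term and 0.13 without scivMSC 2, when 1 gene was higher.

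Hair shaft and inner root sheath genes lay on the opposite side. All 33 tested genes had a lower fitted level in scivMSC, 9 of them at an unadjusted p under 0.05, and in 25 every scivMSC library was below every scMSC library. The median log2 difference was -1.86. The list stood at 7.12, 8.79 and 7.5 in scMSC and 6.90, 5.37 and 6.15 in scivMSC. scMSC 1 and scivMSC 1 were thus neighbours, and the gap came from the other libraries. Both routes were far above DNCB skin, at 1.23 to 3.42, and control skin, at -1.82 to 1.36. The list has 34 genes, of which Krt85 had no row in the table.

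Krt31, a keratin of the hair cortex, was at 154, 437 and 220 FPKM in scMSC and 115, 31.5 and 88.0 FPKM in scivMSC, a log2 fold change of -1.83 ± 0.81 (SE, n = 3 and 3, unadjusted p = 0.0456, adjusted p = 0.661). The most abundant member, the inner root sheath keratin Krt71, was at 2054, 5633 and 3096 FPKM against 1991, 842 and 1062 FPKM, with a log2 fold change of -1.51 ± 1.34 (unadjusted p = 0.284). Crym, a crystallin-like protein made in the growing hair, was at 70.3, 235 and 90.8 FPKM against 51.8, 18.01 and 32.6 FPKM (log2 fold change -2.00 ± 0.78, unadjusted p = 0.0268). In each of these genes scMSC 2 was the highest library and scivMSC 2 the lowest. The count depended on single libraries. Without scMSC 2, 0 of the 33 genes were lower at p under 0.05 and the median was -1.08, and without scMSC 1, 13 were. Libraries outside the comparison, which share the estimate of spread, moved the count too. Leaving out 1 control or DNCB library gave from 4 genes lower, without DNCB 1, to 25, without control 2. The median was -1.86 in both fits. In a model of the 6 MSC libraries alone 31 were lower, with a median of -1.86. With the lung split as a term 1 gene was lower and the median was -1.29.

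The regulators of follicle growth followed at a smaller size. Of 22 genes, 21 had a lower fitted level in scivMSC and 6 passed an unadjusted p of 0.05, all lower, with a median of -0.62. Without scMSC 2 there were 2. Bmp4, a signal of the follicle mesenchyme and matrix, was at 13.5, 7.96 and 10.2 FPKM in scMSC and 5.45, 3.67 and 4.35 FPKM in scivMSC (log2 fold change -1.24 ± 0.27, unadjusted p = 0.000817, adjusted p = 0.565). Its routes did not overlap, and its control libraries, at 7.24, 9.13 and 5.24 FPKM, overlapped both. Foxn1, the transcription factor whose loss makes nude mice, was at 13.1, 28.8 and 16.7 FPKM against 12.9, 9.03 and 7.88 FPKM (log2 fold change -1.02 ± 0.30, unadjusted p = 0.00648). Here too scMSC 1 and scivMSC 1 nearly met. Hoxc13, which drives hair keratin genes, overlapped, at 29.6, 67.8 and 63.4 FPKM against 30.7, 17.9 and 32.5 FPKM. The other stem cell and outer root sheath genes gave 1 gene higher and 1 lower of 16 at p under 0.05, with a median of 0.10, or 0.35 with the lung split as a term.

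Genes of the pigment cells of the hair bulb had a lower fitted level in scivMSC in all 12 members of their list, with a median of -0.83, but 1 gene passed p under 0.05 and the libraries overlapped. That gene was Mitf, the master regulator of melanocytes, at 11.2, 18.1 and 14.6 FPKM in scMSC and 9.86, 6.79 and 6.78 FPKM in scivMSC (log2 fold change -0.94 ± 0.22, unadjusted p = 0.00139). scMSC 3 stood highest of the 6 on this list, with 132 FPKM of Pmel, the pigment granule protein, against 35.3 to 66.5 FPKM in scivMSC. Without scMSC 3 the median was -0.36. It was -1.37 with the lung split as a term, and 6 genes were then lower at p under 0.05.

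Sebaceous gland genes leaned towards scivMSC. Of 22 genes, 5 were higher and 2 lower at p under 0.05, with a median of 0.46, and the list levels overlapped, at 4.25, 3.57 and 3.42 in scMSC and 4.21, 3.89 and 4.52 in scivMSC. Krt79, a keratin of the duct between follicle and gland, counted with the outer root sheath list, was at 169, 147 and 134 FPKM in scMSC and 223, 272 and 214 FPKM in scivMSC (log2 fold change 0.64 ± 0.15, unadjusted p = 0.00113). Acsbg1, an acyl-CoA synthetase, was at 72.5, 59.9 and 46.5 FPKM against 103, 88.6 and 131 FPKM (log2 fold change 0.84 ± 0.23, unadjusted p = 0.00421). The gland count rested on single libraries, with 1 gene higher at p under 0.05 without scMSC 3 or without scivMSC 3, and 10 without scMSC 1 or without scivMSC 2. The median was 0.25 without scivMSC 3, 0.16 without scMSC 2 and scivMSC 3 together, and 0.76 with the lung split as a term. DNCB skin had 2.12 to 2.56 on the gland list, below every MSC library.

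Neutrophil genes were low in both routes beside DNCB skin and uneven among the scivMSC mice. The neutrophil list stood at 0.38, 0.39 and -0.44 in scMSC and 0.33, 1.58 and 0.53 in scivMSC, with 4.11 to 4.45 in DNCB skin and -0.19 to 0.52 in control skin. Of 25 genes tested, 5 were higher in scivMSC and 1 lower at p under 0.05, with a median of 0.93. Cxcr2, the chemokine receptor that draws neutrophils into tissue, was at 0.92, 1.00 and 0.96 FPKM in scMSC against 2.21, 2.72 and 1.77 FPKM in scivMSC. Its log2 fold change was 1.19 ± 0.19 (SE, n = 3 and 3, unadjusted p = 7.98e-05, adjusted p = 0.565), and DNCB skin was at 10.3 to 12.7 FPKM. The alarm protein gene S100a8 overlapped, at 12.5, 21.9 and 7.56 FPKM against 11.2, 67.2 and 31.7 FPKM. Without scivMSC 2 the neutrophil median was 0.36, without scMSC 3 it was 0.37, and with the lung split as a term it was 2.10, with 11 genes higher.

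Acute mediators showed the same uneven pattern. The list stood at 0.17, 0.16 and -0.68 in scMSC and -0.28, 1.28 and 0.11 in scivMSC, and 2 of 29 genes were higher at p under 0.05. Il1b, the interleukin that the inflammasome releases in mature form, was at 4.39, 6.04 and 0.39 FPKM in scMSC and 1.31, 10.1 and 7.52 FPKM in scivMSC, beside a DNCB mean of 162 FPKM. Its route difference was 0.77 ± 0.97 log2 units, so neither direction was resolved. The median of the list was 0.77, without scivMSC 2 it was 0.01, and with the lung split as a term it was 1.304, with 7 genes higher.

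For T cell, mast cell and Langerhans cell genes some MSC libraries reached the level of DNCB skin or came close to it. The T cell list stood at -0.52, -1.32 and -1.35 in scMSC and -0.52, -0.70 and -0.89 in scivMSC, around the -0.65 to -0.53 of DNCB skin. Control skin, at -0.87 to -0.23, spanned that DNCB range. T cell genes gave 2 higher and 0 lower of 20, with a median of 0.54. Without scMSC 3, 0 were higher and the median was 0.24, and with the lung split as a term 4 were higher and it was 1.23. The mast cell list stood at 1.96, 1.01 and 0.98 in scMSC and 1.71, 1.90 and 0.08 in scivMSC, so that 1 library of each route came close to the 2.00 to 2.13 of DNCB skin. Control skin was at 0.23 to 0.62 on this list. Langerhans and dendritic cell genes were at 1.00 to 1.296 in DNCB skin, below the 1.44 to 2.27 of control skin. scMSC 1 (1.78), scivMSC 1 (1.88) and scivMSC 2 (1.74) lay within the control range. These genes were below DNCB skin in scMSC 3 (0.80) and scivMSC 3 (0.72). Their median difference between the routes was 0.28, or 1.07 with the lung split as a term. Among macrophage genes 0 were higher and 2 of 22 lower, and the 2 were Gpnmb, a glycoprotein that melanocytes also make, and Arg1, an arginine-degrading enzyme.

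Dermal compartments separated mice rather than routes. Of 28 fibroblast and matrix genes 0 passed p under 0.05 in either direction. The list stood at 5.09, 3.62 and 4.05 in scMSC and 4.88, 5.10 and 2.93 in scivMSC. Col1a1, the main chain of collagen I, ran from 36.4 FPKM in scivMSC 3 to 300 FPKM in scivMSC 2, an interval that held the scMSC values of 201, 56.5 and 81.2 FPKM. Its route difference of 0.61 ± 0.60 log2 units (95% interval -0.70 to 1.93) left room for a difference of either sign. The median moved from 0.19 to 0.61 for fibroblast genes, and from 0.19 to 0.67 for endothelium, with the lung split as a term. scivMSC 3 was also lowest of its route for macrophages, at 1.04 against 2.98 and 3.37 in its group, for mast cells, at 0.08 against 1.71 and 1.90, and for endothelium, at 0.70 against 2.03 and 1.88. It was highest for skeletal muscle, at 7.23 against 5.96 and 5.74.

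Fat cell genes gave 4 higher and 1 lower of 25 at p under 0.05, with a median of 0.17, and 0 higher without scMSC 3. The lower gene was Lep, which codes for the fat hormone leptin. It was at 4.45, 2.69 and 6.16 FPKM in scMSC and 0.60, 0.62 and 1.18 FPKM in scivMSC, a log2 fold change of -2.46 ± 0.57 (SE, n = 3 and 3, unadjusted p = 0.00122, adjusted p = 0.565). Control skin (7.48, 5.31 and 2.25 FPKM) and DNCB skin (2.77, 2.70 and 7.39 FPKM) lay with scMSC. Against DNCB skin Lep was called lower in scivMSC (log2 fold change -2.39, adjusted p = 0.0283) while its log2 difference in scMSC was 0.06 (adjusted p = 0.970). Retn, which codes for resistin, another product of fat cells, leaned the other way, at 13.2, 9.29 and 9.03 FPKM against 23.1, 27.5 and 12.7 FPKM. Gpd1, a glycerol metabolism enzyme abundant in fat, was at 35.2, 21.4 and 26.8 FPKM against 45.2, 40.3 and 42.7 FPKM. The fat cell median was 0.49 with the lung split as a term. The lists of skeletal muscle, nerve, smooth muscle and red cell genes had medians between -0.01 and 0.22. The skeletal muscle value of 0.14 rested on single libraries. It was -0.03 without scMSC 2 and -0.45 without scivMSC 3, with 7 of 31 genes then lower at p under 0.05, and -0.64 with 13 lower when both were left out. It was -0.18 with the lung split as a term, and without scivMSC 2 the red cell median was -0.19.

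The circadian clock list had a median of 0.04, with 0 genes higher and 2 of 18 lower at p under 0.05. Dbp, a clock output factor, was at 12.7, 7.07 and 9.64 FPKM in scMSC and 4.07, 4.14 and 5.40 FPKM in scivMSC (log2 fold change -1.11 ± 0.20, unadjusted p = 0.000193, adjusted p = 0.565). Nr1d1, the REV-ERB alpha repressor of the clock, was at 21.1, 13.4 and 13.4 FPKM against 8.77, 10.5 and 9.48 FPKM (log2 fold change -0.74 ± 0.17, unadjusted p = 0.00114). Both were far below control skin, where Dbp was at 39.6 to 48.5 FPKM and Nr1d1 at 41.4 to 53.2 FPKM. Dbp overlaps Sphk2 on the other strand. Mitotic genes, interferon response genes and immediate early genes had medians of 0, 0.04 and 0.08, and none of them passed p under 0.05. Under the lung term these medians were -0.51, 0.48 and 0.26.

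Each MSC library was also placed between control and DNCB skin, over the genes that DNCB changed. DNCB skin had 1442 genes called higher than control (6.59%) and 1656 called lower (7.57%). On a log2 scale with the control mean at 0 and the DNCB mean at 1, the median position over the genes higher in DNCB was 0.42, 0.40 and 0.36 in scMSC and 0.40, 0.67 and 0.34 in scivMSC. Over the genes lower in DNCB it was 0.56, 0.76 and 0.60 in scMSC and 0.64, 0.79 and 0.38 in scivMSC. The routes overlapped in both. With 3 libraries a side an exact two-sided permutation test cannot go below 0.10, and none was run. Against DNCB skin, 1861 genes (8.5%) were called in scMSC and 1195 (5.46%) in scivMSC. The DNCB libraries are common to both counts, and the wider gap for scMSC says nothing of a difference between the routes, for which 1 gene was called.

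**Figure D3:**
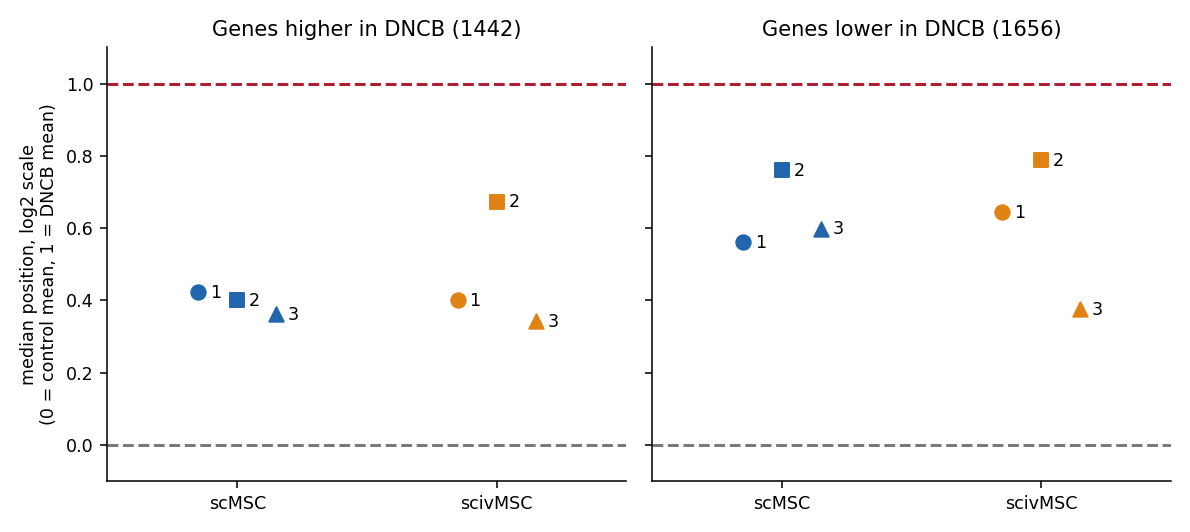
Median position of each MSC library between control skin (0, grey line) and DNCB skin (1, red line), over 1442 genes higher and 1656 genes lower in DNCB skin. The number beside each point is the replicate. scivMSC 2 lies highest in both panels and scivMSC 3 lowest in both, with the 3 scMSC libraries between them.

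The genes that the study followed by RNA-seq in this skin were also compared as a group. They are receptors and kinases of type 2 and inflammasome signalling, genes of barrier lipids and cornification, and genes read in both skin and blood, such as the Toll-like receptors and Cxcr2. Of 58 tested, 15 had an unadjusted p under 0.05 and 0 passed the adjusted test, the lowest adjusted p being 0.565. The fitted level was higher in scivMSC for 45 of the 58 and lower for 12, and Cxcr1 was listed at 0 in every MSC library. All scivMSC libraries lay above all scMSC libraries for 7 genes and below them for 0. All 15 were higher in scivMSC, and 10 of them were on the stress keratinocyte list already described. The other 5 were Myd88, Klk14, Elovl4, Adam8 and Cxcr2. These genes were picked by the study on the same mice and are not independent evidence of a direction.

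For the kinases of the pathway the intervals bounded the difference to under 2-fold. Jak1 was at 19.9, 11.02 and 13.7 FPKM in scMSC and 20.3, 22.2 and 12.2 FPKM in scivMSC, a log2 difference of 0.28 ± 0.21. Stat6, the transcription factor under the interleukin-4 receptor, was at 27.1, 22.4 and 23.1 FPKM against 30.7, 32.9 and 24.0 FPKM (0.25 ± 0.13, unadjusted p = 0.0852). Il4ra, that receptor's chain, overlapped, at 6.51, 4.30 and 3.21 FPKM against 7.24, 9.81 and 3.41 FPKM. Its 95% interval, -0.24 to 1.27, reached past 2-fold, as did those of Il1b (-1.37 to 2.91), Nlrp3 (-1.13 to 2.72) and Hrh2 (-0.24 to 2.17). In 16 of the 57 genes with an interval it lay within 2-fold in both directions. Of the genes shared with blood, Adam8, a metalloprotease of myeloid cells, was at 3.33, 1.59 and 1.25 FPKM in scMSC and 3.73, 8.51 and 2.53 FPKM in scivMSC (1.24 ± 0.49, unadjusted p = 0.0280). Tlr2, a receptor for bacterial lipoproteins, was at 1.62, 1.23 and 0.99 FPKM against 1.46, 2.12 and 1.24 FPKM (0.31 ± 0.26), and both genes overlapped. Elovl4, an elongase of very long barrier lipids, was at 284, 176 and 140 FPKM against 340, 232 and 499 FPKM (0.84 ± 0.32, unadjusted p = 0.0236).

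**Figure D4:**
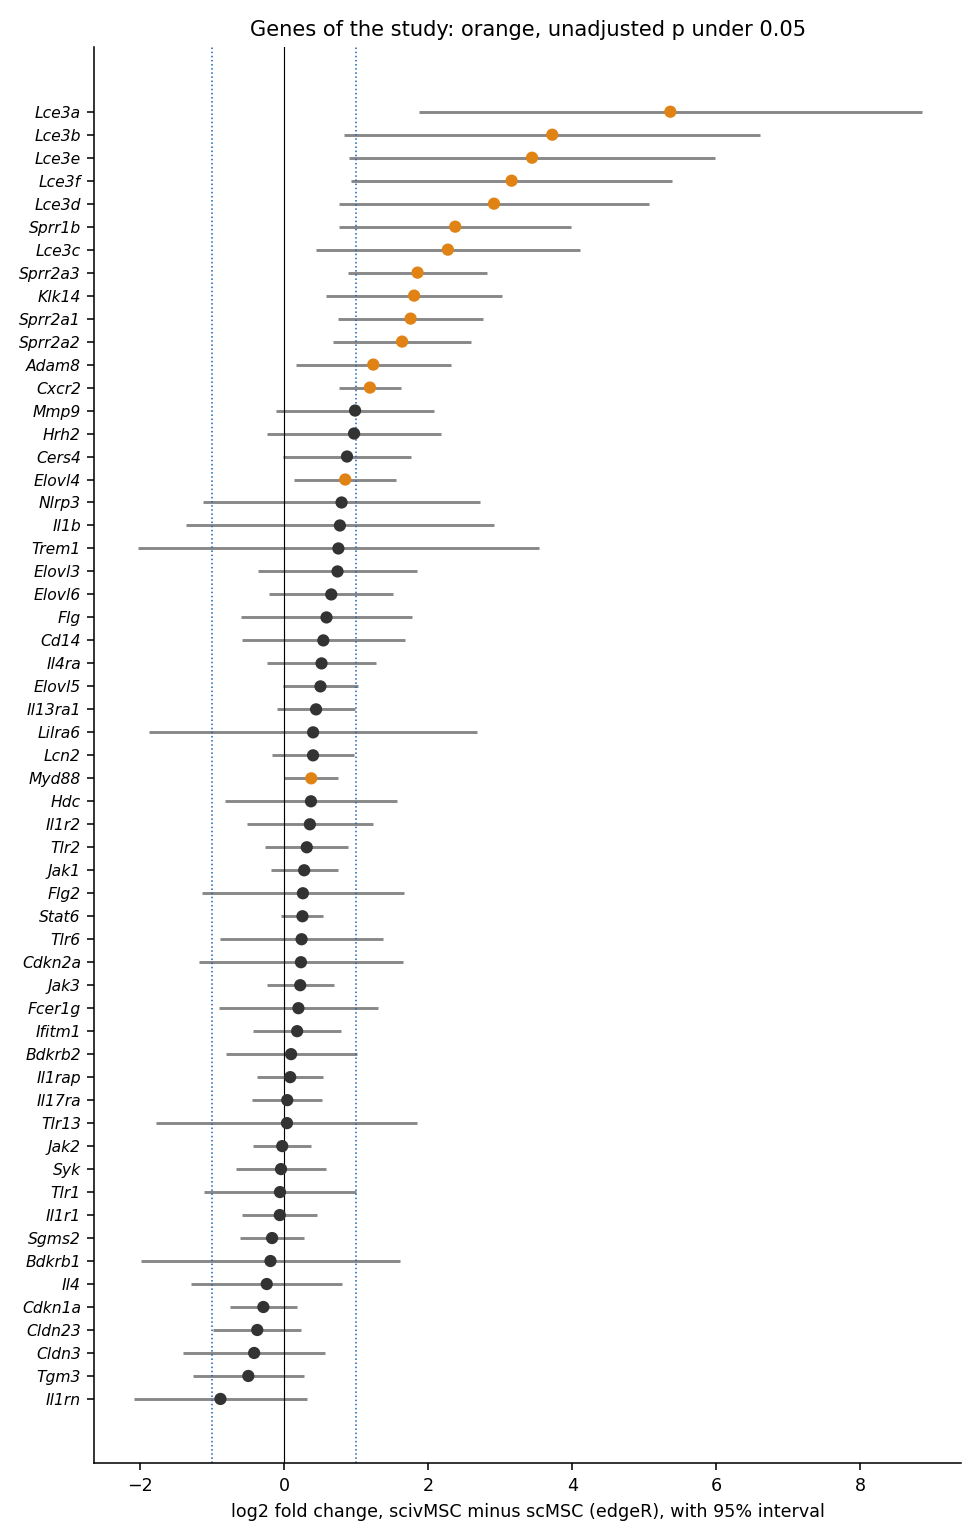
Log2 fold change between the routes (scivMSC minus scMSC) for the 57 study genes that had a 95% interval, drawn as a line, from the model of all 12 libraries. Orange points had an unadjusted p under 0.05 and dotted lines mark 2-fold. Genes of the cornified envelope (Lce3, Sprr1b and Sprr2a) lie at the top with wide intervals, and the intervals of Jak1, Jak2, Jak3, Syk and Stat6 lie within the dotted lines.

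Genes with the largest differences outside the lists, named by size among those with non-overlapping routes, were partly of uncertain origin. Snord12, a small nucleolar RNA inside Zfas1, was at 0.03, 0.03 and 0.04 FPKM in scMSC and 13, 11.4 and 11.8 FPKM in scivMSC, but at most 1 estimated count lay behind a scMSC value. The DNCB libraries, which received no cells, were split in the same way, at 23.11, 0.04 and 0.03 FPKM. Control skin was at 7.44, 9.01 and 13.08 FPKM. The pseudogene Rps12-ps4 and the gene Nphs1 overlap each other on opposite strands and were higher together. Rps12-ps4 also varied within DNCB skin, at 10.73, 82.06 and 22.96 FPKM. On the lower side stood Il1f10, an interleukin-1 family member of the epidermis, at 8.95, 23.2 and 11.4 FPKM against 4.37, 2.72 and 3.75 FPKM (log2 fold change -2.04 ± 0.50, unadjusted p = 0.00177). Sptssb, a subunit of the enzyme that starts sphingolipid synthesis, was at 4.04, 11.7 and 7.38 FPKM against 1.84, 1.25 and 1.86 FPKM. In Il1f10, Sptssb, Ly6g6g, Adh6b, Psors1c2 and Csdc2 the highest library was scMSC 2, as for the hair shaft genes. All of these had adjusted p-values of 0.555 or more.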

How the data were processed

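Total RNA of dorsal skin was sequenced in 12 libraries, 3 per group, and grouped here by their titles. The authors deposited 1 table with an estimated count and an FPKM value per gene and library. The submitters' processing notes name HISAT2 2.0, StringTie 1.3.0, Bowtie 0.12.2 and the build mm8, without roles, whereas 36285 of 36400 gene identifiers overlapped their GENCODE M21 position on GRCm38; the counting program is not given in the sources used here. The deposited estimated counts of low genes were multiples of 4 in 38.9% to 41.2% of cases, so 1 fragment may stand for more than 1 count and counting noise may be larger than the totals imply.

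Counts were tested as deposited with edgeR 4.0.16 in R 4.3.3 (TMM factors, quasi-likelihood F test, 1 model of the 4 groups). The Benjamini-Hochberg adjustment was over the 21890 genes averaging 0.1 FPKM or more. Among the alternatives, DESeq2 took rounded counts. Genes were called at an adjusted p under 0.05 where the log2 fold change exceeded 1 in either direction. The code was tested on simulated data. DESeq2 1.42.0, limma 3.58.1 on log2(FPKM + pseudocount), other filters and scalings, each left-out library and a replicate block were alternatives. The members, the lists and the rules were chosen with earlier results of these data known, and the lung list, the lung term and the joint left-out pair after the data were seen.

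Genes named were those called; the 10 largest log2 fold changes per direction with an unadjusted p under 0.01, non-overlapping routes and at least 1 FPKM; in each list the most abundant member, the 2 largest changes and members with an unadjusted p under 0.05; the study's skin genes; and the 10 widest ranges within a route. Promoter windows came from RefSeq (GRCm38.p6).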

Additional observations from a re-analysis of the deposited data

Results flagged for a closer look

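Ccdc50 was the 1 result for which the effects of the 2 routes, each against DNCB skin, differed by a test of the difference itself. Its log2 fold change between scivMSC and scMSC was 2.72 (edgeR quasi-likelihood test, adjusted p = 0.000511), higher in 3 of 3 scivMSC libraries. Against DNCB skin it was -2.74 in scMSC and -0.02 in scivMSC. With the lung transcript split as a term, which sets scivMSC against scMSC 3 alone, the route difference was 2.48. Over 25 alternative fits it ran from 2.07 to 2.90.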

How the results depend on the processing

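The count of genes called was 1 in the model of all 12 libraries and Ccdc50 was called in each of the 25 alternative fits. It was 3 with the 6 MSC libraries alone (Sar1a, Foxn2 and Ccdc50), 2 with limma on log2(FPKM + 0.1), 3 with the lung term (Rac1, Ccdc50 and Plac9b), 2 without scMSC 2 and scivMSC 3 together, 115 with DESeq2 and 2616 at an unadjusted p under 0.5 and over 2-fold. Leaving out 1 library gave 1 to 5, the 5 without scMSC 3 being Sftpc, Scgb1a1, Sftpb, Hist1h2bq and Ccdc50. The cause of the larger DESeq2 count was not tested. The number of genes at an unadjusted p under 0.05 was 1642, against 2414 without scMSC 1 and 1095 without scMSC 2. The coefficient of variation of scMSC, 0.439, was 0.317 over genes of at least 1 FPKM, 0.445 by library size alone and 0.430 to 0.434 with 1 library left out, and that of scivMSC, 0.455, was 0.339 over genes of at least 1 FPKM and 0.382 to 0.4995 with 1 left out. The scMSC position over genes higher in DNCB skin was 0.31 over genes changed more than 4-fold, against a median of 0.40. That value covers 1 route, and no comparison of the routes is drawn from it. Under the lung term, which is defined by such genes, the log2 fold change changed sign for Scgb1a1 (1.70), Sftpc (7.23) and Sftpa1 (4.99).

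The labels number the libraries 1 to 3 in each group. Deviations of same-numbered MSC libraries from their group means correlated at 0.07, -0.04 and 0.13, so the numbers were not taken as a pairing. With a replicate block 1 gene was called, the same gene. Differences in genes at a few estimated counts per library in both routes could not be resolved at this depth. Snord12 had at most 1 estimated count in a scMSC library and up to 96 in a scivMSC library. Its adjusted p was 0.565 in the main edgeR fit, 0.0112 with DESeq2 and 0.00465 with edgeR without DNCB 1.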

Other observations

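Some genes stood at either of 2 levels in the MSC libraries without regard to route. Rps2-ps10, a ribosomal protein pseudogene, was at 581, 5.01 and 644 FPKM in scMSC and 616, 2.34 and 595 FPKM in scivMSC. Exosc6, a subunit of the RNA exosome, was at 0.01, 0.02 and 16.5 FPKM against 0.03, 14.3 and 14.5 FPKM. Commd1b, which overlaps Commd1 on the same strand, was at 10.1, 0.01 and 0 FPKM against 0.03, 8.84 and 0 FPKM. Eif3j2, which codes for a translation initiation factor subunit, was listed at 0 in scMSC 2 and at 18.7 to 26.6 FPKM in the other MSC libraries. Rps2-ps10 and Eif3j2 are copies of other genes, and how shared reads were divided is not given in the sources used here.

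Major urinary protein genes, a family of near-identical copies known from liver, also differed between mice of 1 route. Mup10 was at 0.21, 0.20 and 3.16 FPKM in scMSC and 13.1, 0 and 7.77 FPKM in scivMSC, and Mup13 at 6.23, 7.07 and 0 FPKM against 3.16, 4.14 and 1.06 FPKM. Myl2, the slow and cardiac form of a myosin light chain, was at 0.98, 1.40 and 1.78 FPKM in scMSC and 0.08, 0.05 and 9.22 FPKM in scivMSC, highest in the library that also stood highest on the skeletal muscle list.

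Over the broader annotation terms carried by the deposited table, the median log2 difference between the routes was 0.17 for the inflammatory response (23 of 291 genes higher and 16 lower at an unadjusted p under 0.05), 0.22 for the immune response (13 and 8 of 208), 0.07 for the innate immune response (25 and 14 of 361) and -0.09 for hair follicle development (0 and 5 of 41). Without scMSC 3 the genes higher were 10 for the inflammatory response, 6 for the immune response and 7 for the innate immune response. With the lung split as a term they were 48, 35 and 41, with 10, 4 and 8 lower. Without scivMSC 2 the medians of the 3 terms were 0, 0.05 and -0.06.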
